A study of Mus musculus with 52 samples.

Results

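The nuclear genes that encode the structural subunits of the oxidative phosphorylation complexes were followed in the spinal cord, cortex and skeletal muscle of mice carrying a mutant profilin 1 transgene. Members were taken by symbol from the mouse gene lines of the expression table: protein-coding genes named Ndufa, Ndufb, Ndufc, Ndufs or Ndufv with a number, Ndufab1, Sdha to Sdhd, every Uqcr gene, Cyc1, the Cox4 to Cox8 genes with their isoforms, and every Atp5 gene. The rule gave 86 members of 55401 mouse gene lines, 37 of complex I, 4 of complex II, 9 of complex III, 18 of complex IV and 18 of complex V. It used no measured value, and 12 pseudogene lines with similar symbols were left out. Ndufa4 was counted with complex I by its symbol. Cox8c, a testis isoform, and a second entry for Atp5o had 0 counts in all 52 libraries. A count of 0 allows up to 3 counts, or 0.0268 to 0.0451 CPM (counts scaled to a common library size) depending on the library, and this limit covers counting error only.

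Oxidative phosphorylation takes place in the inner mitochondrial membrane. Complex I oxidises NADH and complex II oxidises succinate, complexes III and IV pass the electrons to oxygen while protons are pumped, and complex V, the ATP synthase, uses the proton gradient to make ATP. Most subunits are encoded in the nucleus and imported, whereas a small set in complexes I, III, IV and V is encoded by mitochondrial DNA. Several complex IV subunits and the c-ring of complex V have more than 1 nuclear gene, and some of these isoforms are restricted to heart and skeletal muscle or to testis.

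Polyadenylated RNA of whole tissue was sequenced from 3 arms, with 6 libraries in each arm and tissue except 5 vehicle transgenic muscle libraries and 5 wild-type cortex libraries. The treated transgenic arm was PFN1_C71G with AAV-amiR-Atxn2, an adeno-associated virus carrying an artificial microRNA against Atxn2. The vehicle transgenic arm was PFN1_C71G with vehicle, and the wild-type arm was FVB/NJ (FVB_WT) with vehicle. PFN1_C71G is a model of amyotrophic lateral sclerosis with a mutant human profilin 1 transgene. Its promoter, the vector dose and route, the vector's capsid and promoter, and the muscle sampled are not given in the sources used here, and there was no arm with a control vector. All wild-type mice were 36 weeks old, while each transgenic group held 2 mice of 38 or 39 weeks except vehicle transgenic muscle, which held 1. Nothing in the labels says whether the same mouse gave several tissues, so p-values measure the spread between these libraries.

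Totals on mouse genes ran from 66.5 to 111.9 M counts per library, and RNA integrity numbers from 7.1 to 8.3. Human PFN1 had 19040.3 counts or more in every transgenic library and at most 1 in wild type. The WPRE vector element had 3189 to 6962 counts in treated spinal cords and 2096 to 5852 in treated cortices, but 1 to 5 in treated muscles, against 0 to 1 in all other libraries. The treatment in the title differs from that in the library name for 4 cord libraries; titles were used, and the vector counts followed them. Treated spinal cord replicate 2 stood apart. Markers of adipocytes summed to 471.9 CPM there, against at most 21.9 CPM in vehicle transgenic and 0.355 CPM in wild-type cords. Among them, Ucp1 was at 256.3 CPM, against at most 0.109 CPM in vehicle transgenic and 0.0978 CPM in wild-type cords. Markers of skeletal muscle summed to 444.5 CPM there, against at most 51.4 CPM in any other cord.

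In wild-type mice the subunit genes were most abundant in muscle. The summed subunit counts were 2.47% ± 0.188 of all mouse gene counts in wild-type muscle (SD, n = 6), 0.887% ± 0.0400 in wild-type spinal cord (SD, n = 6) and 0.688% ± 0.0131 in wild-type cortex (SD, n = 5). In a joint edgeR quasi-likelihood model of all 52 libraries, 80 of the 84 members tested were higher in wild-type muscle than in wild-type cortex and 4 were lower at an adjusted p under 0.05, where 36.4% and 50.0% of all 22316 genes tested were. Between wild-type spinal cord and wild-type muscle, 4 members were higher in cord and 80 lower, where 48.8% and 36.9% of all genes were. Spinal cord stood above cortex for 55 members and below it for 3, where 29.8% and 31.0% of all genes were. The median log2 difference of the members was 3.10 for muscle minus cortex, against −0.40 over all genes, and 0.32 for cord minus cortex, against −0.02. With scaling by library size only, the members' median for muscle minus cortex was 1.86 in place of 3.10. The median of all genes moved by −1.22. A change of scaling moves all genes by nearly the same amount. The members' median relative to all genes, 3.48 in place of 3.50, could therefore hardly change and tests nothing. In bulk tissue, more cells of a type and more RNA per cell cannot be told apart.

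Complex V held the most abundant subunit mRNA. Per kilobase of transcript, Atp5b, the catalytic beta subunit of the ATP synthase, averaged 1623 ± 147 CPM in wild-type muscle, 553 ± 21.1 in wild-type spinal cord and 381 ± 12.2 in wild-type cortex (SD, n = 6, 6 and 5), the highest of the members in each tissue. Cox4i1, the main form of complex IV subunit 4, was next in spinal cord at 414 ± 17.5 and in cortex at 374 ± 17.9, whereas in muscle Atp5a1, the alpha subunit, was next at 1121 ± 111.9 CPM per kilobase. At the low end in muscle, after the genes at 0, stood Cox7b2 and Cox6b2, isoforms known from testis, at 0.0619 ± 0.0626 and 0.377 ± 0.0947 CPM per kilobase.

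The 4 members lower in muscle than in cortex were all isoforms of complex IV. Cox6a1, the form of subunit 6a found in most tissues, differed by −2.29 (SE 0.10, adjusted p = 1.92e-25) on the log2 scale, and Cox8a, the corresponding form of subunit 8, by −2.17 (SE 0.09, adjusted p = 2e-25). Their heart-and-muscle partners went the other way: Cox6a2 differed by 10.78 (SE 0.36, adjusted p = 2.09e-29) and Cox8b by 10.42 (SE 0.91, adjusted p = 3.35e-14). The muscle form of subunit 7a, Cox7a1, differed by 9.89 (SE 0.51, adjusted p = 4.65e-22), but its partner Cox7a2 was also higher in muscle, by 2.05 (SE 0.09, adjusted p = 7.73e-25). Cox4i2, an isoform known to be induced by low oxygen in lung, was higher in muscle than in cortex by 1.70 (SE 0.19, adjusted p = 4.13e-11) yet reached only 2.31 ± 0.370 CPM per kilobase in wild-type muscle.

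Promoter windows of RefSeq (GRCm38.p6), from 250 bases before to 50 bases after each annotated start, were found for 69 members and held 74 windows, of 32851 windows in the table. The sequences below show a muscle isoform beside forms found in most tissues, the testis isoform that differed in spinal cord, and the flavoprotein of complex II; capitals mark matches to the motifs named after them. Cox8b lies at chr7:140900397-140900696 (minus strand), Cox8a at chr19:7217567-7217866 (minus), Cox6a1 at chr5:115348909-115349208 (minus), Cox6b2 at chr7:4753045-4753344 (minus) and Sdha at chr13:74350191-74350490 (minus).
Cox8b: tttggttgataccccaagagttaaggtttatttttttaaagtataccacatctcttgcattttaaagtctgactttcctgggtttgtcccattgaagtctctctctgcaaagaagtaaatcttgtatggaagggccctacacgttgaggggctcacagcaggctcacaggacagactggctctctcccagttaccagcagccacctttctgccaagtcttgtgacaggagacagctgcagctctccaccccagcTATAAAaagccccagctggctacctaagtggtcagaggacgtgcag
Cox8a: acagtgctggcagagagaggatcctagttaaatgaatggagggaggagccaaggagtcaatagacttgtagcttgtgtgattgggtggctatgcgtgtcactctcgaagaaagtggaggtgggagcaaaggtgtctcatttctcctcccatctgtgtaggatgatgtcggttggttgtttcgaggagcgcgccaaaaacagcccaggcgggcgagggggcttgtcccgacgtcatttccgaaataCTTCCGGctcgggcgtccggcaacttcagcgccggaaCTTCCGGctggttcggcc
Cox6a1: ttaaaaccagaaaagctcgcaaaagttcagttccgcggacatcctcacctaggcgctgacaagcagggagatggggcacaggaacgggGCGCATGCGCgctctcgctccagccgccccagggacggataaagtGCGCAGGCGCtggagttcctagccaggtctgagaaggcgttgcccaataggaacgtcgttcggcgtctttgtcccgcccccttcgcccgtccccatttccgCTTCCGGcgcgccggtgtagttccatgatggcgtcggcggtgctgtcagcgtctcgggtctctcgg
Cox6b2: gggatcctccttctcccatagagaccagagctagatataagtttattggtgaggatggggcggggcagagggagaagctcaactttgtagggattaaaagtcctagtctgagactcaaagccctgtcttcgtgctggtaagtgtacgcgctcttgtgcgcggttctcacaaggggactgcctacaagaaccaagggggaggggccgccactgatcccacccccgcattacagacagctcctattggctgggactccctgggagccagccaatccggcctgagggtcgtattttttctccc
Sdha: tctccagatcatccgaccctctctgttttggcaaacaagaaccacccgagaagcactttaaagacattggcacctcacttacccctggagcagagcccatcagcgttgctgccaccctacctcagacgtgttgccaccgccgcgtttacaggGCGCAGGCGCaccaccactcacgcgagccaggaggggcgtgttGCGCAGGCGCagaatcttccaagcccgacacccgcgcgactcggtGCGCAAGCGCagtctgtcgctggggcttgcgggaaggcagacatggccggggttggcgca
In these windows, Sdha carried 3 matches to the nuclear respiratory factor 1 motif (GCGCA and GCGC with any 1 base between them, which is its own reverse complement), Cox6a1 carried 2 of them and 1 ETS motif (CCGGAAG or its reverse complement CTTCCGG), and Cox8a carried 2 ETS motifs. Cox8b had the letters of the TATA box motif (TATAAA), beginning 4 bases after its annotated start, and no match to the other motifs. Cox6b2 had no match to any of the 4 motifs. The windows of the pair Cox7a1 and Cox7a2, not shown here, had no match to any of the 4 motifs either. CpG dinucleotides numbered 2 in the Cox8b window, 7 in Cox7a1, 10 in Cox6b2, 19 in Cox8a, 20 in Cox7a2, 25 in Sdha and 32 in Cox6a1.

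Across the 74 member windows, searched on both strands, 24.3% held the nuclear respiratory factor 1 motif, against 4.6% of all windows. The ETS motif was in 21.6% of member windows, against 8.86% of all, and the YY1 motif (AAGATGGC) in 13.5%, against 2.75%. TATAAA was in 10.8% of member windows, against 13.6% of all. The motifs differ in letters and none contains another. Member windows had a median of 19 CpG dinucleotides, against 7 over all windows. The motif shares were not compared at equal CpG content, so its part in them was not tested. A match describes letters in the window and is not a binding site.

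The comparison of vehicle transgenic with wild-type muscle asks how the transgene's disease state relates to subunit mRNA. Nearly the whole set was lower in vehicle transgenic muscle: 78 of the 83 members tested fell and 0 rose (94.0% lower), where 24.7% of all 16949 genes tested were lower and 25.5% higher. The median log2 fold change was −0.49 over the members, against 0.01 over all genes. By complex, 36 of 37 members of complex I fell, 4 of 4 of complex II, 9 of 9 of complex III, 12 of 16 of complex IV and 17 of 17 of complex V, with medians of −0.49, −0.44, −0.49, −0.49 and −0.49. For 44 of the 83 members every vehicle transgenic library lay below every wild-type library, as for 14.3% of all genes; for 0 members every one lay above, against 14.5%. Cox7b2 did not reach the count filter in muscle.

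**Figure D1:**
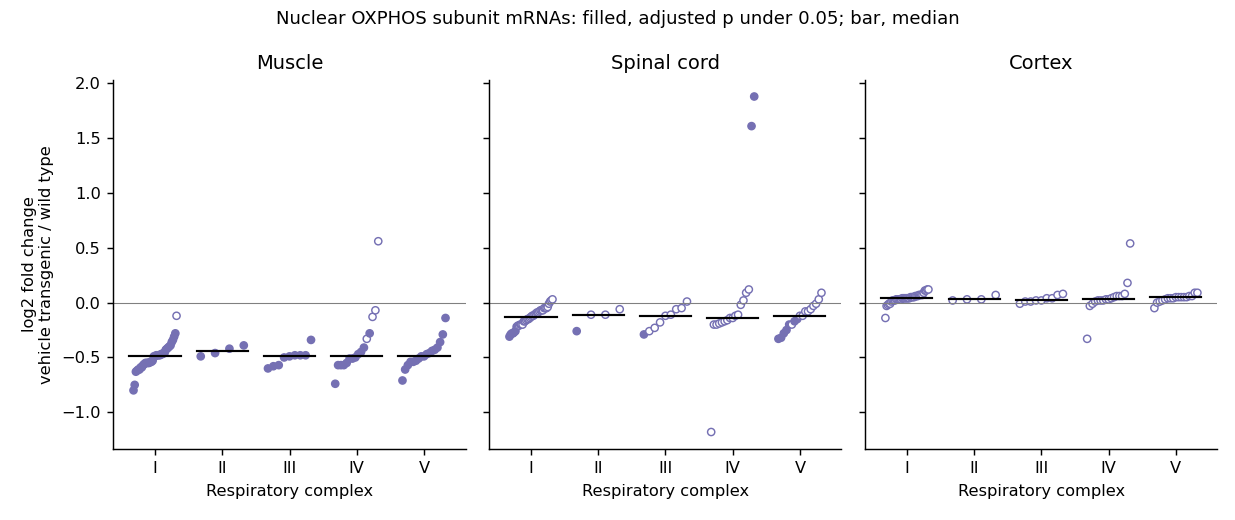
Log2 fold change of each member in vehicle transgenic over wild-type tissue (y axis), by respiratory complex (x axis), with a panel for each tissue. Filled points passed an adjusted p of 0.05 and bars are medians; in muscle nearly all points are filled and below 0, in spinal cord they scatter just below 0 with Cox6b2 and Cox6a2 far above, and in cortex none is filled.

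In complex I, the accessory subunit Ndufb4 was at 43.8, 53.7, 57.0, 57.1 and 62.9 CPM in vehicle transgenic muscle and at 73.8 to 117 CPM (median 91.0) in wild-type muscle. Its libraries did not overlap between these arms, and the log2 difference was −0.80 (SE 0.11, adjusted p = 1.51e-05). Ndufb4c, a near-identical pseudogene at up to 72.2 CPM, may share reads with it, so that its size is uncertain. Ndufs7, an iron-sulfur subunit next to the ubiquinone site, was at 100.4, 120.4, 129, 132 and 135 CPM in vehicle transgenic and at 162 to 239 CPM (median 208) in wild-type muscle. Every vehicle transgenic library was below every wild-type one, with a log2 difference of −0.75 (SE 0.12, adjusted p = 7.01e-05). Ndufc1 and Ndufa8, accessory subunits of the membrane arm, fell by 0.62 and 0.63 on the log2 scale (adjusted p = 5.41e-05 and 7.42e-05).

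Core subunits of the NADH-oxidising arm of complex I were lower as well. Ndufs1, its largest iron-sulfur subunit, was at 309, 358, 378, 392 and 413 CPM in vehicle transgenic and at 427 to 520.4 CPM (median 489) in wild-type muscle. The arms did not overlap, with a log2 difference of −0.39 (SE 0.09, adjusted p = 0.00206). Ndufv1, which binds NADH and FMN, differed by −0.43 (SE 0.10, adjusted p = 0.00149). Among the 37 members, Ndufb3, an accessory subunit, was the exception that did not pass, at −0.12 (SE 0.09, adjusted p = 0.316).

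Complex II has no mitochondrially encoded subunit. Sdha, the flavoprotein that oxidises succinate, was at 443, 519, 568, 601 and 639.8 CPM in vehicle transgenic muscle and at 656 to 865 CPM (median 773) in wild-type muscle. These arms did not overlap, and the log2 difference was −0.49 (SE 0.10, adjusted p = 0.000451). Sdhb, the iron-sulfur subunit, differed by −0.42 (SE 0.11, adjusted p = 0.00434), and the membrane anchors Sdhc and Sdhd by −0.39 and −0.46.

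In complex III, Uqcrfs1, the Rieske iron-sulfur protein, was at 299, 356, 366, 376 and 391 CPM in vehicle transgenic and at 393 to 564 CPM (median 498) in wild-type muscle. The lowest wild-type library was just above the highest vehicle transgenic one, and the log2 difference was −0.48 (SE 0.10, adjusted p = 0.000849). Cyc1, cytochrome c1, differed by −0.49 (SE 0.11, adjusted p = 0.00205), with overlapping libraries, and the core protein Uqcrc1 by −0.50 (SE 0.11, adjusted p = 0.000938). Uqcrh, the hinge protein between cytochromes c1 and c, differed by −0.48 (SE 0.10, adjusted p = 0.000641).

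**Figure D2:**
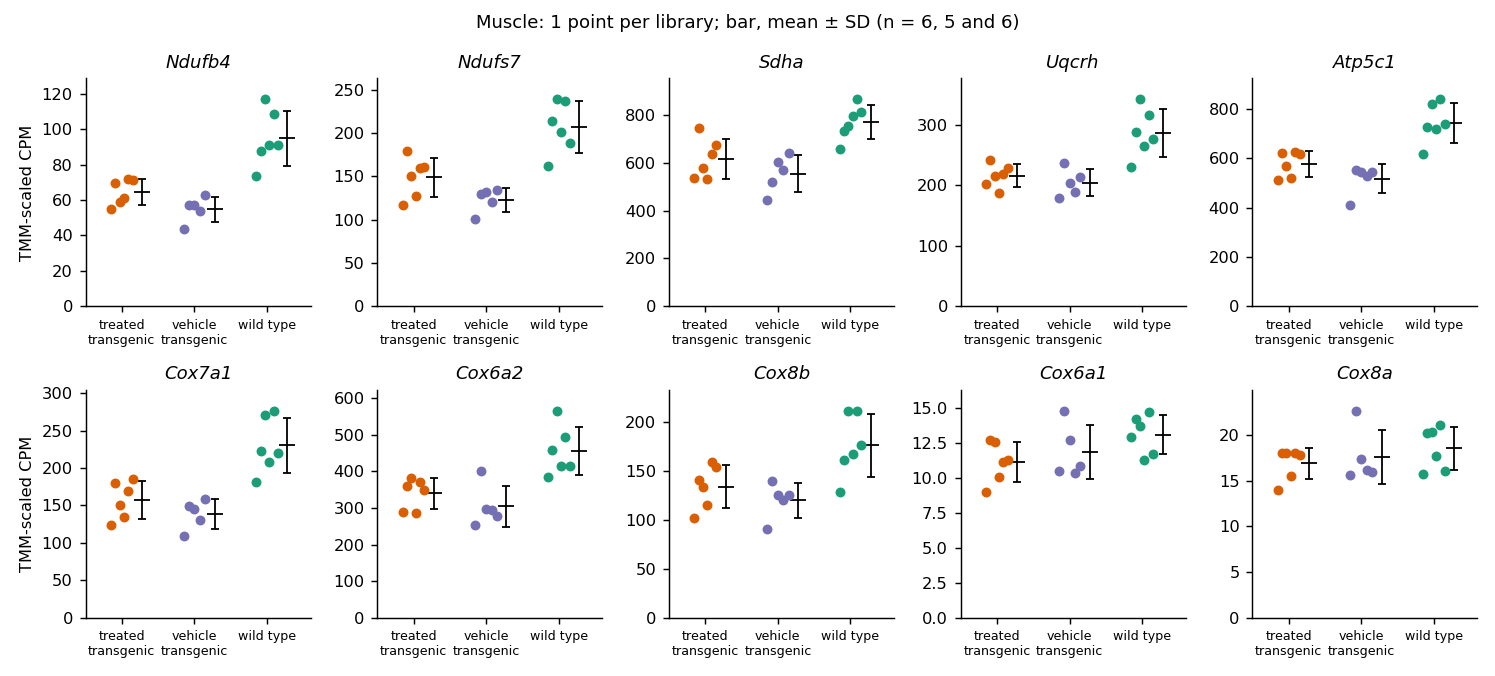
TMM-scaled CPM (y axis) of 10 members in muscle, 1 point per library, for treated transgenic, vehicle transgenic and wild-type mice; bars are means ± SD. Vehicle transgenic points lie low for the first 8 genes (Ndufb4 at 43.8 to 62.9 CPM, against 73.8 to 117 CPM in wild type), treated points sit mostly between, and Cox6a1 and Cox8a overlap in all arms.

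In complex V, Atp5c1, the gamma subunit that turns inside the catalytic head, was at 412, 529, 544, 546 and 554 CPM in vehicle transgenic and at 619 to 840.0 CPM (median 732) in wild-type muscle. The arms did not overlap; vehicle transgenic replicate 1 lay below its 4 companions, and the log2 difference was −0.53 (SE 0.09, adjusted p = 0.000127). Atp5b was at 1913, 2356, 2455, 2497 and 2517 CPM in vehicle transgenic and at 2648 to 3430.0 CPM (median 3084) in wild-type muscle, again without overlap, with a log2 difference of −0.41 (SE 0.09, adjusted p = 0.00142). Atp5a1 differed by −0.47 (SE 0.10, adjusted p = 0.000934) and Atp5e, the small epsilon subunit, by −0.61 (SE 0.11, adjusted p = 0.00015).

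The 3 c-ring genes encode the same mature protein behind different import sequences. Atp5g1 was at 194, 242, 266, 268 and 274 CPM in vehicle transgenic and at 290.5 to 479.7 CPM (median 401) in wild-type muscle, and the arms did not overlap; its log2 difference was −0.71 (SE 0.14, adjusted p = 0.000417). Atp5g2 differed by −0.43 (SE 0.09, adjusted p = 0.000512) and Atp5g3 by −0.36 (SE 0.11, adjusted p = 0.012). Taken per length, Atp5g1 made up 32.6% ± 1.57 of the 3 in vehicle transgenic muscle (SD, n = 5), against 37.8% ± 1.31 in wild-type muscle (SD, n = 6), and Atp5g3 made up 48.6% ± 1.27, against 44.2% ± 0.914. For both genes the shares of these arms did not overlap. These shares are descriptions, with no test.

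In complex IV, where the isoforms differ most between tissues, Cox7a1 was at 109, 131, 146, 149.5 and 159 CPM in vehicle transgenic muscle and at 182 to 277 CPM (median 222) in wild-type muscle. The arms did not overlap, with a log2 difference of −0.74 (SE 0.13, adjusted p = 0.000151). Cox6a2 was at 254, 277, 295, 298 and 401 CPM in vehicle transgenic and at 385 to 567 CPM (median 438) in wild-type muscle; 1 vehicle transgenic library reached into the wild-type range, and the log2 difference was −0.57 (SE 0.12, adjusted p = 0.000929). Cox8b differed by −0.57 (SE 0.14, adjusted p = 0.00251), with overlapping libraries. Cox4i1 differed by −0.51 (SE 0.11, adjusted p = 0.000914) and Cox5a, which lies on the matrix side, by −0.57 (SE 0.11, adjusted p = 0.000352).

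In complex IV 4 of the 16 members tested did not pass, whereas Cox7a2, the less abundant form of its pair in muscle, did, at −0.47 (SE 0.10, adjusted p = 0.00114). Cox6a1 was at 10.3, 10.5, 10.8, 12.7 and 14.8 CPM in vehicle transgenic and at 11.2 to 14.7 CPM (median 13.3) in wild-type muscle, and the arms overlapped, at −0.13 (SE 0.11, adjusted p = 0.31). Cox8a was at 15.6, 15.9, 16.1, 17.4 and 22.7 CPM in vehicle transgenic and at 15.7 to 21.1 CPM (median 19.0) in wild-type muscle, at −0.07 (SE 0.11, adjusted p = 0.588). Cox4i2 had a log2 difference of −0.33 (SE 0.19, adjusted p = 0.176), and Cox6b2, at most 0.316 CPM in every muscle library, of 0.56 (SE 0.24, adjusted p = 0.0559). Whether these isoforms moved differently from their partners was not tested gene against gene.

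Within each pair, the muscle isoform took a slightly smaller share in vehicle transgenic muscle. Per length, Cox6a2 made up 95.6% ± 0.338 of the Cox6a pair in vehicle transgenic muscle (SD, n = 5), against 96.7% ± 0.360 in wild-type muscle (SD, n = 6). Cox7a1 made up 67.2% ± 1.46 of Cox7a1 and Cox7a2 in vehicle transgenic muscle, against 71.1% ± 0.681 in wild type, and Cox8b made up 91.2% ± 1.06 of Cox8a and Cox8b, against 93.5% ± 0.816. The shares of vehicle transgenic and wild-type libraries did not overlap for any of the 3 pairs. Treated muscles had 96.3% ± 0.226, 68.4% ± 2.17 and 92.3% ± 0.593 (SD, n = 6), between the other arms. These shares are descriptions, with no test.

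**Figure D3:**
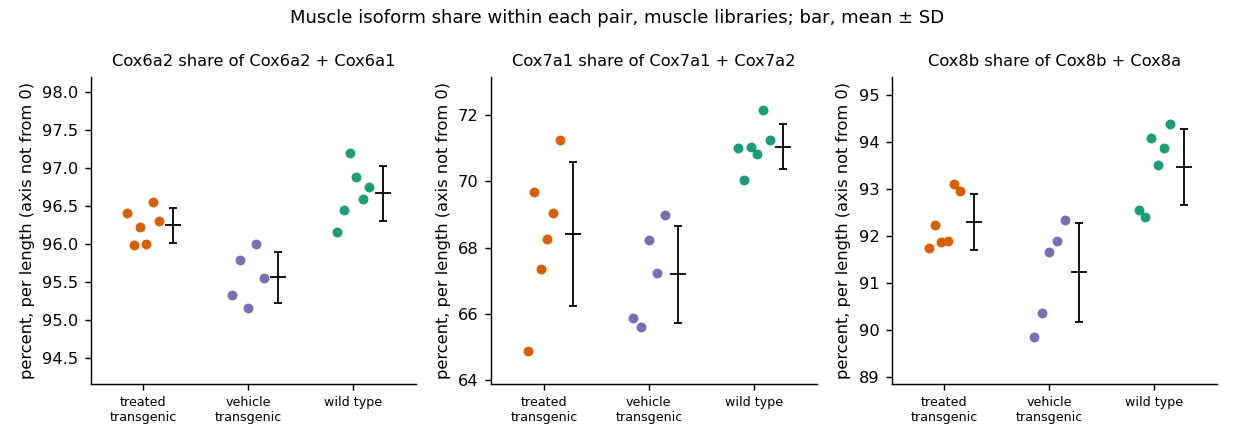
Share of the muscle isoform within the pairs Cox6a2 and Cox6a1, Cox7a1 and Cox7a2, and Cox8b and Cox8a (y axis, percent per length, not from 0), 1 point per muscle library in treated transgenic, vehicle transgenic and wild-type mice; bars are means ± SD. Vehicle transgenic points lie below all wild-type points in each panel, at means of 95.6%, 67.2% and 91.2%, against 96.7%, 71.1% and 93.5%.

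Markers of fibre type and of denervation moved in the same libraries. All 5 slow-fibre markers rose, and their summed level was 179.0 to 2329 CPM in vehicle transgenic muscle, against 21.4 to 159.5 CPM in wild-type muscle. All 5 markers of denervated muscle rose, to 586 to 915 CPM, against 40.2 to 60.7 CPM. Myh2, the myosin heavy chain of fast oxidative IIA fibres, rose as well, at 2434 to 8721 CPM in vehicle transgenic muscle, against 668 to 3619 CPM in wild-type muscle, with a log2 difference of 1.51 (SE 0.40, adjusted p = 0.00596). Of 3 markers of fast IIX and IIB fibres 2 fell, with sums of 16200 to 40970 CPM against 52280 to 70450 CPM, and all 5 general skeletal muscle markers fell, with sums of 42470 to 63010 CPM against 83300 to 115900 CPM. Microglia and macrophage markers summed to 41.0 to 46.9 CPM, against 6.39 to 24.7 CPM, while neuron markers summed to at most 4.82 CPM in every muscle library. The part of these shifts in the fall of the subunit genes was not tested.

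The size of the fall depended on the scaling. TMM factors were 1.041 to 1.176 in vehicle transgenic muscle, against 0.839 to 0.977 in wild-type muscle. With library size only, 26 members fell and 4 rose, while 9237 of all genes rose and 1296 fell, against 4326 and 4186 with TMM. The members' median was then −0.15 in place of −0.49, and the median of all genes moved by 0.33. A change of scaling moves all genes by nearly the same amount. The members' median relative to all genes, −0.49 in place of −0.50, could therefore hardly change and tests nothing. Cox7a2l, a supercomplex factor, stood at 0.06 with library size only, against −0.28 with TMM. As a share of all counts, the summed subunits were 2.23% ± 0.183 in vehicle transgenic muscle (SD, n = 5), against 2.47% ± 0.188 in wild-type muscle (SD, n = 6), and these ranges overlapped.

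In treated transgenic muscle, compared with vehicle transgenic muscle, no member passed the test. Of the 83 members, 79 had a positive log2 difference, with a median of 0.15, but 0 rose and 0 fell, where 0.738% of all genes rose and 0.295% fell. At an unadjusted p under 0.05 there were 10 members (12.0%), against 18.9% of all genes, and DESeq2 also called 0 members, against 969 of all genes; 1 rose without wild-type replicate 3. For 0 members did every treated library lie above every vehicle transgenic one, or every one below, against 0.962% and 1.37% of all genes. Ndufb4 was at 55.0 to 72.0 CPM (median 65.5) in treated muscle and at 43.8, 53.7, 57.0, 57.1 and 62.9 CPM in vehicle transgenic muscle; these ranges overlapped, at 0.25 (SE 0.11, adjusted p = 0.223). Sdha was at 532 to 744 CPM (median 606) in treated muscle and at 443, 519, 568, 601 and 639.8 CPM in vehicle transgenic muscle, at 0.18 (SE 0.10, adjusted p = 0.327). The vector element was at 1 to 5 counts in these treated muscles. With library size only, 56 of the 83 members had a positive log2 difference, with a median of 0.02, and 0 were called. Over all genes 68 then rose and 505 fell.

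Treated transgenic muscle was still below wild-type muscle. Of the 83 members, 70 fell and 0 rose (84.3% lower), where 17.6% of all genes fell and 17.4% rose; the comparison shares its wild-type libraries with the one before. The median log2 difference was −0.32 over the members. All 70 were among the 78 that fell in vehicle transgenic muscle. Ndufb4 had a log2 difference of −0.55 (SE 0.10, adjusted p = 0.000485) and Cox6a2 of −0.42 (SE 0.12, adjusted p = 0.00859), and these were the 2 members whose treated libraries all lay below the wild-type ones, as for 6.9% of all genes; for 0 members they all lay above, against 7.52%. Ndufc1 differed by −0.46 (SE 0.09, adjusted p = 0.000886), Cox7a1 by −0.55 (SE 0.12, adjusted p = 0.00186), Ndufa8 by −0.44 (SE 0.10, adjusted p = 0.00171), and Uqcrh by −0.41 (SE 0.09, adjusted p = 0.00252). With library size only, 13 members fell and 1 rose, where 1058 of all genes fell and 6155 rose. With RNA integrity as a term 5 members were called, where 4032 of all genes were, in place of 5938. The median RNA integrity number was 7.75 in treated and 7.45 in wild-type muscle, and the cause of the loss of calls was not tested.

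In spinal cord 2 complex IV isoforms were called higher, and the members called lower were in the other complexes. Between vehicle transgenic and wild-type cord, 2 of 84 members rose and 17 fell, where 18.8% of all 20307 genes rose and 17.9% fell. The share of members lower (20.2%) was thus near that of all genes, and the median log2 difference was −0.12, against 0 over all genes. The 17 were 8 of complex I, 1 of complex II, 1 of complex III and 7 of complex V, with 0 of complex IV. The 2 that rose were both complex IV isoforms. The medians did not set complex IV apart, at −0.13, −0.11, −0.12, −0.14 and −0.12 for complexes I to V. Of the 17 members of complex IV tested, 12 had a negative log2 difference. For 25 members every vehicle transgenic library lay below every wild-type one, against 11.1% of all genes, and for 2 every one lay above, against 11.8%.

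Cox6b2, the testis isoform of a subunit that joins the monomers of complex IV, was at 4.37, 4.53, 4.53, 4.59, 5.21 and 6.13 CPM in vehicle transgenic cords and at 1.18, 1.18, 1.26, 1.31, 1.49 and 1.55 CPM in wild-type cords. The arms were far apart, with a log2 difference of 1.88 (SE 0.19, adjusted p = 9.47e-07). Per length it made up 4.79% ± 0.796 of the Cox6b1 and Cox6b2 pair in vehicle transgenic cord, against 1.24% ± 0.165 in wild-type cord (SD, n = 6 each). Cox6a2, the muscle isoform, was at 0.791, 0.832, 0.835, 0.932, 0.959 and 1.01 CPM in vehicle transgenic cords and at 0.0705, 0.107, 0.148, 0.277, 0.575 and 0.597 CPM in wild-type cords. The arms did not overlap, with a log2 difference of 1.61 (SE 0.48, adjusted p = 0.0145). Both were called under all 30 alternatives tried. Of 5 skeletal muscle markers 0 passed. They summed to 1.39 to 12.6 CPM in vehicle transgenic cords, against 2.46 to 51.4 CPM in wild-type cords, with overlap, and their part in the level of Cox6a2 was not tested.

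Of the remaining muscle isoforms, Cox7a1 was at 1.46 to 1.92 CPM (median 1.80) in vehicle transgenic and at 1.09 to 2.24 CPM (median 1.61) in wild-type cord, with overlap, at 0.09 (SE 0.52, adjusted p = 0.911). Cox8b was at 0.0790 to 0.188 CPM (median 0.106) in vehicle transgenic and at 0.188 to 0.256 CPM (median 0.223) in wild-type cord, with no overlap, yet at −1.18 (SE 1.52, adjusted p = 0.585). The fit shares its spread with treated replicate 2, where Cox8b was at 27.7 CPM; without that library the log2 difference was −0.96 (adjusted p = 0.0103). Cox7b2 was at 0.227 to 0.454 CPM (median 0.268) in vehicle transgenic and at 0.236 to 0.381 CPM (median 0.316) in wild-type cord, at −0.02 (SE 0.25, adjusted p = 0.967).

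Among the members that fell, Ndufb2, an accessory subunit of complex I, was at 46.0 to 51.3 CPM (median 48.6) in vehicle transgenic and at 55.4 to 62.2 CPM (median 59.4) in wild-type cord. The arms did not overlap, with a log2 difference of −0.28 (SE 0.05, adjusted p = 0.000308). Ndufs1 was at 139 to 155 CPM (median 143) in vehicle transgenic and at 172 to 178 CPM (median 174) in wild-type cord, again apart, at −0.27 (SE 0.07, adjusted p = 0.00569). Ndufa9, which sits where the arms of complex I meet, differed by −0.31 (SE 0.09, adjusted p = 0.00814) and Ndufv1 by −0.29 (SE 0.09, adjusted p = 0.0134). Sdha was at 366 to 394 CPM (median 379) in vehicle transgenic and at 441 to 467 CPM (median 450.0) in wild-type cord, apart, at −0.26 (SE 0.07, adjusted p = 0.011). Cyc1 was the complex III member that fell, at −0.29 (SE 0.11, adjusted p = 0.0423). Atp5b was at 799.6 to 892 CPM (median 849) in vehicle transgenic and at 1007 to 1117 CPM (median 1062) in wild-type cord, without overlap, at −0.32 (SE 0.09, adjusted p = 0.00993), and Atp5a1 differed by −0.28 (SE 0.08, adjusted p = 0.00963).

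The c-ring genes did not move together in spinal cord. Atp5g1 was at 62.5 to 73.0 CPM (median 69.8) in vehicle transgenic and at 77.8 to 91.3 CPM (median 89.0) in wild-type cord and differed by −0.33 (SE 0.06, adjusted p = 0.000518). Atp5g3 was at 140.0 to 163 CPM (median 156) in vehicle transgenic and at 169.5 to 188 CPM (median 186) in wild-type cord and differed by −0.25 (SE 0.06, adjusted p = 0.00274). Both were apart between the arms, whereas Atp5g2 overlapped, at 48.6 to 55.1 CPM (median 52.1) in vehicle transgenic and 45.5 to 50.9 CPM (median 49.3) in wild-type cord, and did not pass, at 0.09 (SE 0.05, adjusted p = 0.157). Per length, Atp5g2 made up 26.3% ± 0.301 of the 3 in vehicle transgenic cord, against 21.6% ± 0.433 in wild-type cord, while Atp5g1 made up 25.7% ± 0.233, against 28.4% ± 0.572, and Atp5g3 48.0% ± 0.316, against 50.0% ± 0.488 (SD, n = 6 each). For each gene the ranges of these arms did not overlap. Treated cords had 26.3% ± 1.28 for Atp5g1, 24.1% ± 1.43 for Atp5g2 and 49.6% ± 0.727 for Atp5g3. These shares are descriptions, with no test.

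**Figure D4:**
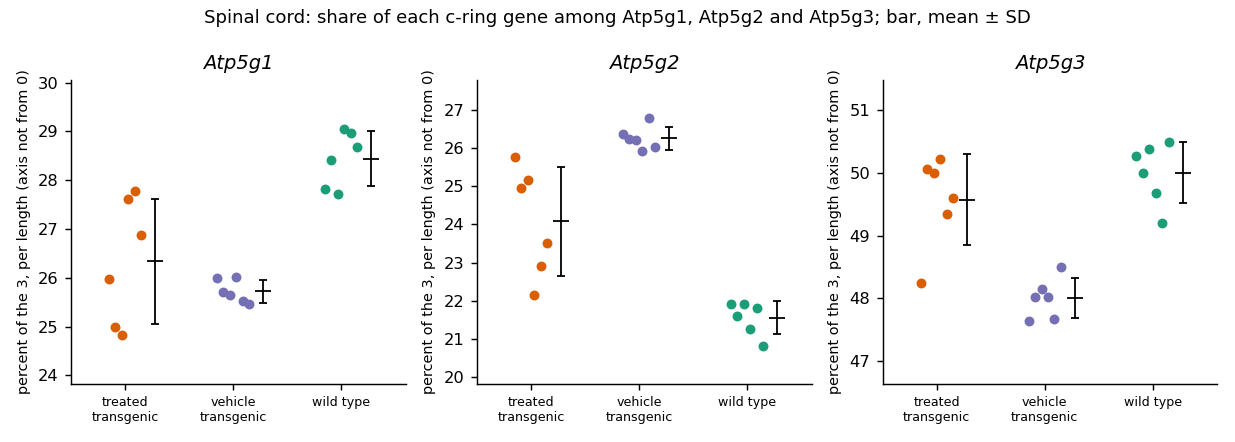
Share of Atp5g1, Atp5g2 and Atp5g3 among the 3 (y axis, percent per length, not from 0), 1 point per spinal cord library in treated transgenic, vehicle transgenic and wild-type mice; bars are means ± SD. Vehicle transgenic libraries lie above all wild-type ones for Atp5g2, at a mean of 26.3% against 21.6%, and below them for Atp5g1 and Atp5g3.

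Cell-type markers also differed between these cords. All 6 motor neuron markers fell, with sums of 37.7 to 157.6 CPM in vehicle transgenic cords, against 189.6 to 221.8 CPM in wild-type cords. Of 7 neuron markers 5 fell, with sums of 3321 to 3855 CPM against 4873 to 5565 CPM. All 5 microglia and macrophage markers rose, with sums of 461.6 to 571.3 CPM against 116.8 to 169.6 CPM, and 3 of 5 astrocyte markers rose. Their part in the subunit levels was not tested. Ndufb2 was called in all 30 alternatives, the other members named above as lower in 29, all but the one with treatments taken from the library names, and Cyc1 in 15. Those treatments go against the vector counts and mix libraries of the transgenic arms, so a loss of calls was to be foreseen and tests little. Under them 1 member fell and 3 rose, where 6332 of all genes were called in place of 7442. Without the mice over 36 weeks 53 fell and 2 rose, of 7295 calls in all. Without the 4 cord libraries high in adipocyte or skeletal muscle markers 28 fell and 2 rose, of 6626 calls in all. With 1 library left out, 9 fell and 2 rose without wild-type replicate 4 or vehicle transgenic replicate 5, and 39 fell and 2 rose without treated replicate 2. With library size only, 9 fell and 3 rose, and 72.9% of the calls over all genes were higher, against 51.3% with TMM.

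In treated transgenic cord, compared with vehicle transgenic cord, 11 of 84 members rose and 1 fell, where 2.9% of all genes rose and 2.11% fell. The median log2 difference was 0.19, and 80 members had a positive one. The 11 were 5 of complex I, 1 of complex III, 1 of complex IV and 4 of complex V. Ndufa9 was at 86.1, 91.9, 102, 111, 122 and 139 CPM in treated cords and at 79.4, 83.9, 84.5, 85.2, 85.7 and 85.9 CPM in vehicle transgenic cords. The lowest treated library was just above the highest vehicle transgenic one, and the log2 difference was 0.37 (SE 0.09, adjusted p = 0.0239). Ndufs1 overlapped, at 154 to 223 CPM (median 172) in treated and 139 to 155 CPM (median 143) in vehicle transgenic cord, with a log2 difference of 0.29 (SE 0.07, adjusted p = 0.0269). Atp5a1 differed by 0.33 (SE 0.08, adjusted p = 0.0253), Atp5f1, the b subunit of the stalk, by 0.26 (SE 0.06, adjusted p = 0.0251), Atp5c1 by 0.24 (SE 0.06, adjusted p = 0.0301) and Atp5g3 by 0.24 (SE 0.06, adjusted p = 0.0307).

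Cox7a2l was at 90.5, 91.1, 97.9, 100.2, 101 and 111.8 CPM in treated cords and at 78.5, 83.0, 84.9, 85.9, 87.2 and 90.3 CPM in vehicle transgenic cords. The arms did not overlap, with a log2 difference of 0.22 (SE 0.05, adjusted p = 0.0263). Uqcrb, a small subunit of complex III, was at 56.7 to 88.5 CPM (median 60.6) in treated and at 46.7 to 55.4 CPM (median 52.02) in vehicle transgenic cord, apart, at 0.33 (SE 0.09, adjusted p = 0.0397). Cox6b2 was the member that fell. It was at 2.12, 2.18, 2.18, 3.76, 3.81 and 4.60 CPM in treated cords, overlapping the vehicle transgenic ones, with a log2 difference of −0.66 (SE 0.18, adjusted p = 0.0458), and this call held in 8 of 30 alternatives, while that of Ndufa9 held in 23.

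These calls depended on the libraries. For 7 members every treated library lay above every vehicle transgenic one, against 1.16% of all genes, and for 1 every one lay below, against 1.07%. Without the 4 cord libraries highest in adipocyte or skeletal muscle markers (treated replicate 2, vehicle transgenic replicate 1 and wild-type replicates 1 and 4), 0 members rose and 0 fell, with a median of 0.11 and 33 members (39.3%) at an unadjusted p under 0.05, against 17.9% of all genes; the calls over all genes then numbered 87 in place of 1017. Between 0 and 38 members were called when 1 library was left out: 0 without treated replicate 4 or 5 or vehicle transgenic replicate 5, 2 without vehicle transgenic replicate 3, 4 without its replicate 4, 5 without its replicate 1, 7 without its replicate 6 or treated replicate 2, 23 without treated replicate 3, and 38 without treated replicate 1. None was called without the mice over 36 weeks, where 88 of all genes were. With treatments from the library names, which go against the vector counts, 0 members and 0 of all genes were called, and the members' median was −0.07. DESeq2 called 26, of 2229 genes in all. In the treated cords motor neuron markers summed to 161.7 to 402.5 CPM and microglia and macrophage markers to 222.5 to 574.4 CPM, and their part was not tested.

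**Figure D5:**
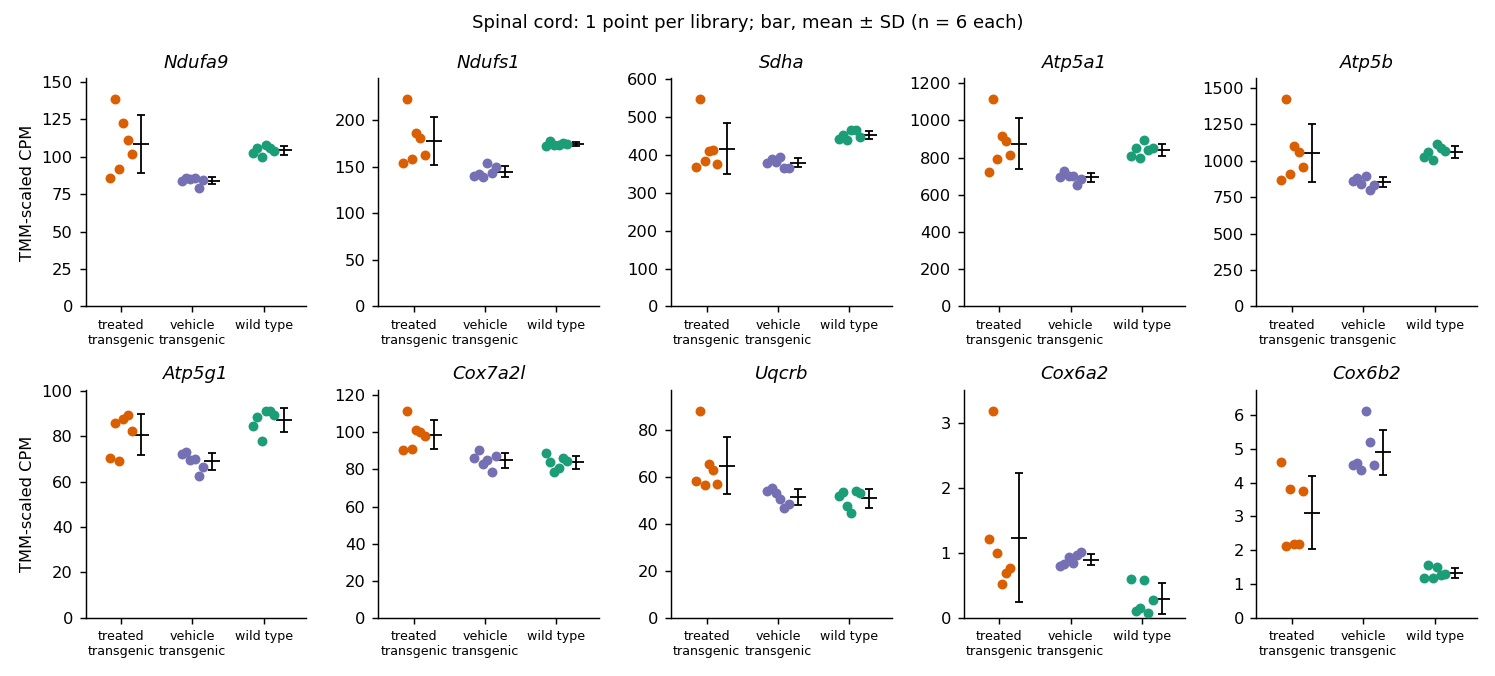
TMM-scaled CPM (y axis) of 10 members in spinal cord, 1 point per library, for treated transgenic, vehicle transgenic and wild-type mice; bars are means ± SD (n = 6 each). Treated libraries scatter widely, with replicate 2 the highest for Cox6a2 at 3.19 CPM, whereas vehicle transgenic and wild-type libraries form tight, separate groups for Ndufa9, Ndufs1, Sdha, Atp5a1, Atp5b, Atp5g1 and Cox6b2.

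Against wild-type cord, treated transgenic cord had 6 members higher and 1 lower, where 14.5% and 10.9% of all genes were. The median was 0.06, and the comparison shares its treated and its wild-type libraries with the others in cord. Without treated replicate 2, 4 members were higher and 4 lower, with a median of −0.03. Without the 4 marker libraries, 4 were higher and 2 lower, with a median of −0.04, where 4245 of all genes were called in place of 5163. Cox6b2 was higher by 1.23 (SE 0.19, adjusted p = 0.000118), without overlap, and Cox6a2 by 1.97 (SE 0.49, adjusted p = 0.00658), with overlap. Cox7a2l was higher by 0.24 (SE 0.05, adjusted p = 0.00235), Uqcrb by 0.35 (SE 0.09, adjusted p = 0.00762), Atp5g2 by 0.16 (SE 0.05, adjusted p = 0.0264) and Ndufc2, an accessory subunit of complex I, by 0.14 (SE 0.05, adjusted p = 0.0375). Ndufb2 was lower, with a difference of −0.21 (SE 0.05, adjusted p = 0.00527). These calls held in 29 or 30 of 30 alternatives, except Atp5g2 in 23 and Ndufc2 in 16. Cox6b2, Cox6a2 and Ndufb2 were called in the same direction in vehicle transgenic cord. For 4 members every treated library lay above every wild-type one, against 7.12% of all genes, and for 0 every one lay below, against 5.47%.

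Cortex gave few calls. Between vehicle transgenic and wild-type cortex, 0 of 84 members rose and 0 fell with edgeR, where 0.0148% of all 20278 genes rose and 0.00986% fell; DESeq2 called 0 members, and 2 were at an unadjusted p under 0.05 (2.38%), against 3.72% of all genes. Between treated and vehicle transgenic cortex, 0 rose and 0 fell with edgeR, where 0.00986% of all genes rose and 0.00986% fell, with 2 members of 364 genes in all called by DESeq2. At an unadjusted p under 0.05 there were 12 members (14.3%), against 11.3% of all genes. Cox6b2, which rose in spinal cord, was at 1.17 to 2.34 CPM (median 1.66) in vehicle transgenic cortex and at 1.29, 1.48, 1.51, 1.66 and 1.80 CPM in wild-type cortex, at 0.18 (SE 0.21, adjusted p = 0.996). Atp5b was at 671 to 798 CPM (median 753) in vehicle transgenic cortex and at 693, 722, 738, 743 and 753 CPM in wild-type cortex, at 0.03 (SE 0.05, adjusted p = 0.996).

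Against wild-type cortex, treated transgenic cortex had 1 member higher and 1 lower, where 0.71% and 0.493% of all genes were. Ndufc2 was at 43.9 to 50.8 CPM (median 47.0) in treated cortex and at 39.4, 39.4, 40.3, 41.3 and 41.6 CPM in wild-type cortex, with a log2 difference of 0.22 (SE 0.05, adjusted p = 0.05), just inside the threshold. Ndufb2 was at 34.7 to 39.0 CPM (median 37.6) in treated cortex and at 40.3, 42.9, 43.6, 43.8 and 45.4 CPM in wild-type cortex, with a log2 difference of −0.20 (SE 0.04, adjusted p = 0.0474). In each, the arms did not overlap; for 14 members every treated library lay above every wild-type one and for 1 every one lay below, against 3.13% and 1.6% of all genes. DESeq2 called 13 members here, of 1381 genes in all, while 7 were called without vehicle transgenic replicate 4 and 1 without its replicate 1. With any of the 5 wild-type libraries, treated replicates 2 to 6 or vehicle transgenic replicates 5 or 6 left out, 0 were called.

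The differences between tissues in the vehicle transgenic effect were tested in the joint model. The effect in muscle was below that in cortex for 75 of 84 members and above it for 0, where 12.7% and 15.0% of all genes were, with a median difference of −0.50. Ndufb4 differed by −0.90 (SE 0.12, adjusted p = 1.8e-07), Ndufa12, an accessory subunit, by −0.65 (SE 0.11, adjusted p = 1.35e-05), Atp5c1 by −0.58 (SE 0.10, adjusted p = 1.63e-05) and Ndufs7 by −0.76 (SE 0.14, adjusted p = 3.08e-05). The effect in spinal cord was above that in muscle for 44 members and below it for 0, where 14.5% and 16.5% of all genes were, with a median of 0.33. Cox6a2, which rose in cord and fell in muscle, differed by 2.16 (SE 0.39, adjusted p = 2.55e-05), and Atp5g2 by 0.49 (SE 0.09, adjusted p = 4.45e-05).

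For cord minus cortex, the effect was higher in cord for 2 members and lower for 2, where 5.44% and 4.24% of all genes were, with a median of −0.20; with RLE scaling 13 members were called. Cox6b2 differed by 1.68 (SE 0.27, adjusted p = 1.52e-05) and Cox6a2 by 1.52 (SE 0.47, adjusted p = 0.0317). In the other direction, Atp5b differed by −0.37 (SE 0.12, adjusted p = 0.039) and Ndufa9 by −0.37 (SE 0.12, adjusted p = 0.0409). Each pair of these differences shares a tissue's libraries.

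The partners of the nuclear subunits in the same complexes, encoded in the mitochondrial genome, were lower in vehicle transgenic muscle with TMM scaling. Of 13, 10 fell and 0 rose, with a median log2 difference of −0.37, where 24.7% of all genes were lower and 25.5% higher. With library size only, 2 fell and 0 rose, with a median of −0.03. Over all genes 1296 then fell and 9237 rose, with a median of 0.35. As a share of all counts, the genes of the mitochondrial genome made up 18.0% ± 2.19 in vehicle transgenic muscle (SD, n = 5), against 18.8% ± 0.881 in wild-type muscle (SD, n = 6), and these ranges overlapped. mt-Nd1, a core membrane subunit of complex I, differed by −0.60 (SE 0.11, adjusted p = 0.000203) and mt-Co1, the catalytic subunit of complex IV, by −0.37 (SE 0.11, adjusted p = 0.0117). The summed TMM-scaled level of the 13 was 120100 to 184700 CPM in vehicle transgenic muscle, against 172500 to 224100 CPM in wild-type muscle. In treated muscle, 1 of 13 was higher than in vehicle transgenic muscle, mt-Atp8, an accessory subunit of complex V, at 0.55 (SE 0.12, adjusted p = 0.0349), and 0 of 13 passed against wild-type muscle. In vehicle transgenic spinal cord and cortex, 0 of 13 passed against wild type. In treated spinal cord 1 of 13 rose, mt-Nd5, a core membrane subunit of complex I, at 0.40 (SE 0.09, adjusted p = 0.0216) against vehicle transgenic cord and at 0.33 (SE 0.09, adjusted p = 0.0113) against wild-type cord, with medians over the 13 of 0.32 and 0.23. Without the 4 cord libraries high in adipocyte or skeletal muscle markers, 0 passed against vehicle transgenic cord, where 87 of all genes did in place of 1017. The libraries were selected for poly(A) tails, and how evenly that captures mitochondrial transcripts was not tested.

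Assembly factors, which build the complexes without staying in them, were mostly lower with TMM scaling: in vehicle transgenic muscle 33 of 45 fell and 1 rose, with a median of −0.34, where 24.7% of all genes were lower and 25.5% higher. Scaled by library size only, 8 fell and 12 rose, with a median of 0. Over all genes 1296 then fell and 9237 rose, with a median of 0.35. Coa7, a factor for complex IV, differed by −0.56 (SE 0.07, adjusted p = 6.11e-06) and Cox11, which inserts copper into complex IV, by −0.57 (SE 0.08, adjusted p = 1.22e-05). In vehicle transgenic cord 15 of 46 fell and 2 rose, where 17.9% of all genes were lower and 18.8% higher. Atpaf1, a chaperone of the ATP synthase head, was at −0.48 (SE 0.06, adjusted p = 9.87e-06) there. Of 22 regulators of mitochondrial biogenesis, 11 fell and 1 rose in vehicle transgenic muscle. With library size only 2 fell and 10 rose, beside the same counts over all genes. With TMM, Ppargc1a, the coactivator PGC-1alpha, differed by −0.50 (SE 0.12, adjusted p = 0.00233), Esrra, a nuclear receptor it activates, by −0.59 (SE 0.11, adjusted p = 0.000396), and Perm1, a muscle regulator of the same receptors, by −0.76 (SE 0.17, adjusted p = 0.00123). Gabpb1, a subunit of the ETS factor GABP, was the one that rose, at 0.35 (SE 0.06, adjusted p = 0.00017).

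Lists of fuel metabolism also moved in vehicle transgenic muscle, where 24.7% of all genes were lower and 25.5% higher with TMM. Of 20 genes of the tricarboxylic acid cycle and pyruvate entry, 18 fell and 0 rose in vehicle transgenic muscle, with a median of −0.37 and Idh3a, the catalytic subunit of NAD-dependent isocitrate dehydrogenase, at −0.68 (SE 0.09, adjusted p = 1.03e-05). Of 27 genes of mitochondrial import and structure, 18 fell and 1 rose, with a median of −0.29 and Vdac3, an outer membrane channel, at −0.66 (SE 0.07, adjusted p = 1.91e-06). Of 19 glycolysis genes, 11 fell and 4 rose, with a median of −0.76, past that of the subunits; Aldoa, aldolase A, was at −1.08 (SE 0.10, adjusted p = 3.12e-07) and Pfkm, muscle phosphofructokinase, at −0.98 (SE 0.08, adjusted p = 1.93e-07). Under library-size scaling, 4 cycle genes fell and 2 rose, 6 import and structure genes fell and 10 rose, and 10 glycolysis genes fell and 8 rose. Over all genes 1296 then fell and 9237 rose. In treated muscle compared with vehicle transgenic muscle, 3 glycolysis genes rose (Aldoa, Gpi1 and Gapdh), while 0 genes of the cycle, assembly, regulator and import lists passed. Over all genes 0.738% rose and 0.295% fell in that comparison.

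In vehicle transgenic spinal cord, where 17.9% of all genes were lower and 18.8% higher, 8 of 20 cycle genes fell and 2 rose, 12 of 27 import and structure genes fell and 0 rose, and 11 of 19 glycolysis genes fell and 1 rose. Under library-size scaling, 2 cycle genes fell and 2 rose, 5 import and structure genes fell and 1 rose, and 4 glycolysis genes fell and 2 rose. With the same scaling 5 of 46 assembly factors fell and 5 rose, and 4 regulators fell and 6 rose. Over all genes 1984 then fell and 5346 rose. Without the 4 marker libraries 14 cycle genes fell, where 6626 of all genes were called in place of 7442. With TMM and all libraries, 6 of the 22 regulators fell and 1 rose. Esrrg, an estrogen-related receptor abundant in neurons, differed by −0.66 (SE 0.12, adjusted p = 0.000449) and Tfam, which packages mitochondrial DNA, by −0.17 (SE 0.04, adjusted p = 0.0029). In treated compared with vehicle transgenic cord, where 2.9% of all genes rose and 2.11% fell, 9 of 27 import and structure genes rose, 4 of 19 glycolysis genes, 2 of 46 assembly factors, 2 of 22 regulators and 1 of 20 cycle genes rose, and 1 cycle gene fell. Without the 4 marker libraries, 0 genes of these 5 lists rose and 1 cycle gene fell, where 87 of all genes were called in place of 1017. The 2 regulators were Tfam at 0.18 (SE 0.04, adjusted p = 0.0208) and Esrrg at 0.45 (SE 0.12, adjusted p = 0.0433). In cortex, 0 genes of these 5 lists passed between vehicle transgenic and wild-type mice.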

How the data were processed

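Expected counts per gene were deposited by the authors as estimated by RSEM 1.3.2; bcl2fastq 2.20, STAR 2.7.2d, DESeq2 1.34.0 and the builds GRCm38 and GRCh38 are also named, per the submitters' processing notes. Libraries were poly(A)-selected (Kapa mRNA HyperPrep) and sequenced paired-end, per the labels' protocols. Whether counting used strand, and the annotation release, are not given in the sources used here; symbols came from GENCODE M21, which matched 55141 of 55401 mouse gene IDs without their version and 54349 with it. Lines outside the mouse genes held at most 0.167% of a library's counts and were left out.

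Expected counts were rounded to whole numbers and tested within each tissue with edgeR 4.0.16 (R 4.3.3, limma 3.58.1): filterByExpr, TMM scaling, robust quasi-likelihood F tests with arm and sex as terms, and Benjamini-Hochberg adjustment over all genes tested (20307 in spinal cord, 20278 in cortex, 16949 in muscle), called at 0.05. All 3 arms of a tissue entered a fit and share its spread. A joint model of the 52 libraries (22316 genes), with sex within tissue, tested differences between tissues. CPM values are TMM-scaled within a tissue; per-kilobase values also divide by transcript length. The script was tested on simulated counts. The chi-square per gene between replicates was well above sampling noise, so no library was taken as a repeat of another.

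The members and all lists were chosen with earlier results of these data known. The text names isoform sets, core subunits, up to 8 called members with the smallest adjusted p per comparison and direction, and up to 4 per difference between tissues; any other gene named, such as list examples, was picked after their values were seen. A gene the rule covers is not reported here. Alternatives were RLE, upper-quartile and library-size scaling, nuclear genes only, no count filter, no sex term, DESeq2 1.42.0, RNA integrity as a term, mice of 36 weeks only, treatments by library name, a replicate block, each library left out and, added after the data were seen, omission of 4 cord libraries with high adipocyte or skeletal muscle markers (sums above 5 or 20 CPM). The other gene lists were recomputed under the scaling alternatives and without those 4 libraries, also after their values were seen. Same-numbered libraries did not deviate together in every pair (correlations from −0.30 to 0.488), so the numbers were not taken as pairs.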

Additional observations from a re-analysis of the deposited data

Results flagged for a closer look

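Each group of 4 to 10 libraries was searched for a library whose gap to its nearest neighbour, as a share of the group's range, passed Dixon's 95% critical value. Of 217 groups searched 22 were marked, and chance marks about 1 in 20. Treated cord replicate 2, the library with high adipocyte and skeletal muscle markers, stood apart for 11 of them, given as the gap share, its level and the range of the others. They were Atp5g2 (0.747; 63.4 CPM, the others 51.6 to 54.6 CPM), Cox6a1 (0.628; 174 CPM, the others 105 to 131 CPM), Cox6a2 (0.739; 3.19 CPM, the others 0.523 to 1.22 CPM) and Cox6b1 (0.702; 203 CPM, the others 127 to 150.0 CPM). Others in it were Cox7a1 (0.948; 19.2 CPM, the others 1.52 to 2.45 CPM), Cox7b (0.641; 158 CPM, the others 104 to 123 CPM), Cox8a (0.688; 142 CPM, the others 97.3 to 111 CPM) and Cox8b (0.994; 27.7 CPM, the others 0.0812 to 0.239 CPM). The remainder were Sdha (0.75; 547 CPM, the others 369 to 413 CPM), Uqcrb (0.711; 88.5 CPM, the others 56.7 to 65.9 CPM) and the summed subunit share (0.705; 1.15%, the others 0.851 to 0.938%). Vehicle transgenic muscle replicate 1 stood apart for Atp5c1 (0.825; 412 CPM, the others 529 to 554 CPM). Wild-type cord replicate 3 stood apart for Atp5g3 (0.689; 169.5 CPM, the others 183 to 188 CPM) and the summed subunit share (0.677; 0.810%, the others 0.881 to 0.915%). Vehicle transgenic cord replicate 5 stood apart for Cox4i1 (0.63; 244 CPM, the others 272 to 289 CPM), Cox7b (0.852; 93.7 CPM, the others 106 to 108 CPM) and Ndufa9 (0.692; 79.4 CPM, the others 83.9 to 85.9 CPM). Treated cortex replicate 5 stood apart for Cox4i1 (0.634; 325 CPM, the others 276 to 294 CPM), Cox4i2 (0.677; 1.47 CPM, the others 0.682 to 0.936 CPM) and Cox8b (0.674; 0.509 CPM, the others 0.0260 to 0.183 CPM). Treated muscle replicate 1 stood apart for Cox6b2 (0.645; 0.316 CPM, the others 0.149 to 0.208 CPM). Vehicle transgenic muscle replicate 2 stood apart for Cox8a (0.741; 22.7 CPM, the others 15.6 to 17.4 CPM).

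The log2 effect of vehicle transgenic over wild type differed between tissues by the test of the difference itself in edgeR's joint model. For spinal cord minus muscle, the named members were Ndufb4 (0.70, SE 0.12, adjusted p = 8.6e-06), Cox6a2 (2.16, SE 0.39, adjusted p = 2.55e-05), Atp5g2 (0.49, SE 0.09, adjusted p = 4.45e-05) and Atp5e (0.61, SE 0.13, adjusted p = 0.000216). For spinal cord minus cortex, the named members were Cox6b2 (1.68, SE 0.27, adjusted p = 1.52e-05), Cox6a2 (1.52, SE 0.47, adjusted p = 0.0317), Atp5b (−0.37, SE 0.12, adjusted p = 0.039) and Ndufa9 (−0.37, SE 0.12, adjusted p = 0.0409). For muscle minus cortex, the named members were Ndufb4 (−0.90, SE 0.12, adjusted p = 1.8e-07), Ndufa12 (−0.65, SE 0.11, adjusted p = 1.35e-05), Atp5c1 (−0.58, SE 0.10, adjusted p = 1.63e-05) and Ndufs7 (−0.76, SE 0.14, adjusted p = 3.08e-05).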

How the results depend on the processing

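The fall of the subunit genes in vehicle transgenic muscle kept its direction and stayed within 1.5 times of 78 calls under the alternatives run, except with library size only (30 called). Over all genes 8512 were called in the main fit and 10533 with library size only. The other counts moved as follows, with the calls over all genes in brackets after "of". Vehicle transgenic against wild-type cord (19 called, of 7442) gave 12 with upper-quartile scaling (of 7243), 12 with library size only (of 7330) and 55 with mice of 36 weeks (of 7295). It gave 4 with library-name treatments (of 6332) and 30 without the 4 marker libraries (of 6626). Library-name treatments go against the vector counts, so a loss of calls under them tests little. Treated against vehicle transgenic cord (12 called, of 1017) gave 7 with upper-quartile scaling (of 902), 4 with library size only (of 532) and 5 with no count filter (of 430). DESeq2 called 26 there (of 2229), and RNA integrity as a term gave 3 (of 321). It gave 0 each with mice of 36 weeks (of 88), library-name treatments (of 0) and without the 4 marker libraries (of 87). Treated against wild-type cord (7 called, of 5163) gave 4 with library-name treatments (of 4990). In cortex, DESeq2 called 2 for treated against vehicle transgenic (of 364). For treated against wild type (2 called, of 244) DESeq2 called 13 (of 1381) and RLE scaling gave 1 (of 243). Upper-quartile scaling (of 51), library size only (of 35), no filter (of 35), RNA integrity (of 11) and mice of 36 weeks (of 8) gave 0 each there. In muscle, RNA integrity as a term gave 2 for treated against vehicle transgenic (of 449), where the main fit had 0 (of 175). For treated against wild type (70 called, of 5938) it gave 5 (of 4032), and library size only gave 14 (of 7213). The difference of the effect between cord and muscle (44 called, of 6914) had 14 with library size only (of 7753) and 27 with RNA integrity (of 6513). Between cord and cortex (4 called, of 2161) it had 13 with RLE scaling (of 2729) and 2 with library size only (of 1742). It had 11 there with RNA integrity (of 1953) and 26 with mice of 36 weeks (of 2618). Between muscle and cortex (75 called, of 6182) it had 26 with library size only (of 8056). As a share of nuclear counts only, the summed subunits were 2.81% in treated, 2.73% in vehicle transgenic and 3.04% in wild-type muscle, 0.899% in vehicle transgenic and 0.962% in wild-type cord, and 0.8025% in treated, 0.792% in vehicle transgenic and 0.753% in wild-type cortex. Cox7a2l reversed in vehicle transgenic muscle with library size only, at 0.06. The causes were not tested.

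With each library left out in turn, calls ranged from 11 to 41 for vehicle transgenic against wild-type cord, 0 to 38 for treated against vehicle transgenic cord, 6 to 8 for treated against wild-type cord, 0 to 7 for treated against wild-type cortex, 77 to 79 for vehicle transgenic against wild-type muscle, 0 to 1 for treated against vehicle transgenic muscle and 48 to 77 for treated against wild-type muscle. Of these, 41 came without treated cord replicate 2, 11 without wild-type cord replicate 4 or vehicle transgenic cord replicate 5. With the replicate number as a block, treated against wild-type cortex had 0 calls, of 12 over all genes, and the other counts stayed within 1.5 times. Depth limits Cox8b, Cox7b2, Cox6b2, Cox6a2 and Cox4i2, which lay near or below 1 CPM in at least 1 tissue.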

Other observations

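The shares of the c-ring genes also varied between arms in cortex. Per length, Atp5g1 made up 26.5% ± 0.594 of the 3 in treated cortex and 27.2% ± 0.592 in vehicle transgenic cortex, against 28.6% ± 0.758 in wild-type cortex, and Atp5g2 27.1% ± 0.358 and 27.5% ± 1.16, against 26.9% ± 0.513 (SD, n = 6, 6 and 5). Atp5g3 made up 46.3% ± 0.523 in treated and 45.3% ± 1.09 in vehicle transgenic cortex, against 44.5% ± 0.883 in wild-type cortex, and treated and wild-type cortices did not overlap for it, at 45.7 to 47.1% against 43.4 to 45.2%. In treated muscle Atp5g1 made up 34.4% ± 1.46, between the other arms. These shares are descriptions, with no test.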
